A study of Homo sapiens with 40 samples.

Results

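The p53 repair and stress response targets described here are 10 genes of the 22069 measured. They were chosen by name from genes that p53 is known to activate, and all 10 were present on the arrays. SESN1 (ENSG00000080546_at), SESN2 (ENSG00000130766_at) and FDXR (ENSG00000161513_at) act in oxidative and metabolic stress. BTG2 (ENSG00000159388_at), GADD45A (ENSG00000116717_at) and ZMAT3 (ENSG00000172667_at) act in growth arrest and RNA control. RRM2B (ENSG00000048392_at) supplies nucleotides, and DDB2 (ENSG00000134574_at), XPC (ENSG00000154767_at) and POLH (ENSG00000170734_at) act in the repair of damaged DNA or its replication. Each identifier is that of the probe set that stands for 1 Ensembl gene.

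p53 is a transcription factor that is held low in unstressed cells by MDM2 and accumulates when DNA is damaged or replication is disturbed. Besides the genes that halt the cell cycle or kill the cell, it activates genes that help the cell to survive the stress. In nucleotide excision repair, DDB2 and XPC find the damaged base, and mutations in either gene cause xeroderma pigmentosum, a disease of extreme sensitivity to sunlight. POLH encodes DNA polymerase eta, which copies past ultraviolet lesions that stop the normal polymerases. RRM2B is the ribonucleotide reductase subunit that makes deoxynucleotides outside S-phase. Sestrins lower TORC1 activity and oxidative stress, and ferredoxin reductase (FDXR) passes electrons to mitochondrial enzymes.

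The comparison of a normal with a tumor line was meant to show how each reacts to the loss of regulators of histone genes. The targeted genes were CASP8AP2, a protein of the histone locus body, NPAT, a coactivator of histone transcription, and HINFP, a factor that binds histone promoters. hTERT-RPE1 cells come from normal retinal pigment epithelium and were immortalised with telomerase, and U2OS is an osteosarcoma line in which p53 is not mutated but MDM2 is overexpressed. Both lines were transfected with small interfering RNA (siRNA) at 15 nM, either control siRNA or a pool against 1 of the 3 genes. On days 1 and 2 each line received control or CASP8AP2 siRNA, with 3 arrays in each of 8 groups. On day 3 each line received control, CASP8AP2, NPAT or HINFP siRNA, with 2 arrays in each of 8 groups. A pool of several siRNAs was used for each gene, so single siRNAs cannot be told apart, and each cell type is represented by 1 line. The methods describe the day 3 duplicates as transfected together, so their spread may hold little beyond technical error.

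On the deposited log2 scale the means of the arrays ran from 6.00 to 6.05 for days 1 and 2, and for day 3 from 5.85 to 5.88. The 2 sets of arrays were therefore tested apart, and no level was compared across them. Replicate arrays correlated with r of 0.995 to 0.998 over all genes. The targeted transcript fell in all 10 comparisons with control siRNA, to between 30.1% and 59.1% of the control (limma, highest adjusted p 0.00263). The median difference of all genes lay between -0.03 and 0.02 in those comparisons. Knockdown was weaker in hTERT-RPE1 than in U2OS for each siRNA and day. CASP8AP2 was at 55.5%, 59.1% and 58.7% of the control in hTERT-RPE1 on days 1, 2 and 3. In U2OS it was at 40.6%, 30.1% and 44.3%. NPAT was at 40.3% in hTERT-RPE1 and 33.3% in U2OS, and HINFP at 48.4% and 32.0%. Neither the lines nor the siRNAs were therefore compared at equal knockdown. Because the arrays were brought to nearly equal means, each difference is relative to the other genes, and fewer cells of a type and less RNA per cell cannot be told apart. Of 12 markers of retinal pigment epithelium, 2 had a symbol here, and the defining genes BEST1 and RLBP1 lay at the 32.8th percentile of all genes or lower in the controls of both lines. Of 12 osteoblast lineage markers 4 had a symbol, and RUNX2, which drives bone formation, was higher in hTERT-RPE1 (9.57 to 9.67) than in U2OS controls (7.34 to 7.87). MSX2, a bone and limb patterning factor, was higher in U2OS (6.25 to 7.40) than in hTERT-RPE1 controls (4.96 to 5.35). COL1A2 and IBSP were at 3.47 to 4.49 in both lines. The lines are called by their labels.

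Promoters were examined for the p53 response element, because the members are known as p53 targets. RefSeq (build GRCh38.p14) gave 13 promoters for 8 of the 10 members, each from 250 bases before to 50 after a transcription start. GADD45A and RRM2B had no entry. The element is a pair of decamers, each of 3 purines, a C, 2 bases that are A or T, a G and 3 pyrimidines, which reads the same on both strands. A single decamer was found in 1 promoter each of SESN1 and FDXR, and 2 decamers in 1 promoter of DDB2. Among all 35116 promoters, 6.63% held a decamer, and 0.0285% (10 promoters) held a pair separated by at most 13 bases. DDB2 had such a pair, with 1 base between the decamers, starting at the 6th and the 17th transcribed base. The SESN1 decamer began 49 bases and the FDXR decamer 11 bases before the start. The promoters with a match are shown 5′ to 3′ on the strand of the gene, with the decamers in capitals.
DDB2 (chr11:47214724-47215023, + strand): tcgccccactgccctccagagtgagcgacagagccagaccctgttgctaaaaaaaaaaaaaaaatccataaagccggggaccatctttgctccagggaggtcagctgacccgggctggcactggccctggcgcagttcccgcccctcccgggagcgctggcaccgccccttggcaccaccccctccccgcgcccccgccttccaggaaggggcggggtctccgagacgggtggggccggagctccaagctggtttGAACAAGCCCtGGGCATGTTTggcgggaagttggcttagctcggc
SESN1 (chr6:109008939-109009238, - strand): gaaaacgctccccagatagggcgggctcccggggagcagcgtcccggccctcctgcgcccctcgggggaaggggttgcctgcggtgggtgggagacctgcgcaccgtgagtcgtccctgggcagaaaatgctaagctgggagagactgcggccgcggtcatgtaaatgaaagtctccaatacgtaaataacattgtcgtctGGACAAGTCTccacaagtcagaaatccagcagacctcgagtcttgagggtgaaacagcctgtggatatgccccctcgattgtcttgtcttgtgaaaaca
FDXR (chr17:74872945-74873244, - strand): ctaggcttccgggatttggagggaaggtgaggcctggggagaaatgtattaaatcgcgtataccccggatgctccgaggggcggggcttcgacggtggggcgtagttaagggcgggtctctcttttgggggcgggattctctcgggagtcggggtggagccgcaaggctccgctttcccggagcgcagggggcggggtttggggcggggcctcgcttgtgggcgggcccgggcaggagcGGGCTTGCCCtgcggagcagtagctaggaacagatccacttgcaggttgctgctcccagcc
A match is a description of the sequence and no measurement of binding. Of the genes with a match, DDB2, SESN1 and FDXR were all called higher under CASP8AP2 siRNA in hTERT-RPE1 on day 3. They differed in their other calls. Pearson's r between their differences over the 10 comparisons with control siRNA was 0.729 to 0.795.

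The starting levels of the members differed between the lines. With control siRNA, 6 members were higher in U2OS than in hTERT-RPE1 on each of days 1, 2 and 3, with DDB2 and RRM2B the furthest apart. DDB2 was 2.88-fold higher in U2OS on day 1, 6.04-fold on day 2 and 5.62-fold on day 3 (log2 differences 1.53, 2.59 and 2.49, SE 0.06, 0.06 and 0.12). RRM2B was 2.38-, 3.15- and 5.21-fold higher. For BTG2, FDXR and SESN2 the log2 differences rose from 0.98, 0.71 and 0.80 on day 1 to 1.38, 1.38 and 1.54 on day 2, and were 1.62, 1.57 and 1.35 on day 3. GADD45A was higher by 0.77, 0.41 and 0.45. The highest adjusted p among the tests of these 6 genes was 0.00197 (limma). Of all genes, 26.0%, 27.1% and 23.3% were called higher in U2OS on days 1, 2 and 3. In each of the 6 genes every U2OS control array lay above every hTERT-RPE1 control array of its day. The share of all genes separated in this way was not counted.

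The other 4 members did not follow them. POLH was lower in U2OS on day 1 (-0.68, adjusted p 4.95e-09) and day 2 (-0.22, adjusted p 0.00527) and higher on day 3 (0.27, adjusted p 0.0115). The POLH call of day 2 was lost in a fit of only the groups compared (limma adjusted p 0.0716), and so was that of day 3. The day 3 call was also lost without replicate 1 of the U2OS control (0.25, adjusted p 0.0679) and after cyclic loess (0.14, adjusted p 0.17). Its adjusted p was 0.00211 to 0.17 over the alternatives. SESN1 was lower in U2OS on day 1 (-0.53, adjusted p 0.000482) and day 2 (-0.37, adjusted p 0.00957). The latter difference was -0.19, adjusted p 0.106 without replicate 3 of the U2OS control, and its adjusted p ranged over 0.00056 to 0.106. Its call was also lost in a fit of only the groups compared (limma adjusted p 0.0603). On day 3 the SESN1 difference was 0.32 (adjusted p 0.124). XPC was lower in U2OS on day 1 (-0.23, adjusted p 0.00989), but not without replicate 3 of the U2OS control (-0.17, adjusted p 0.078, range over the alternatives 0.000266 to 0.078), and its differences were 0.07 and 0.24 later. ZMAT3 differences lay between -0.11 and 0.06, and none was called. In all, 9, 8 and 7 members differed between the control groups on days 1, 2 and 3, against 48.7%, 50.8% and 43.8% of all genes called in either direction.

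**Figure D1:**
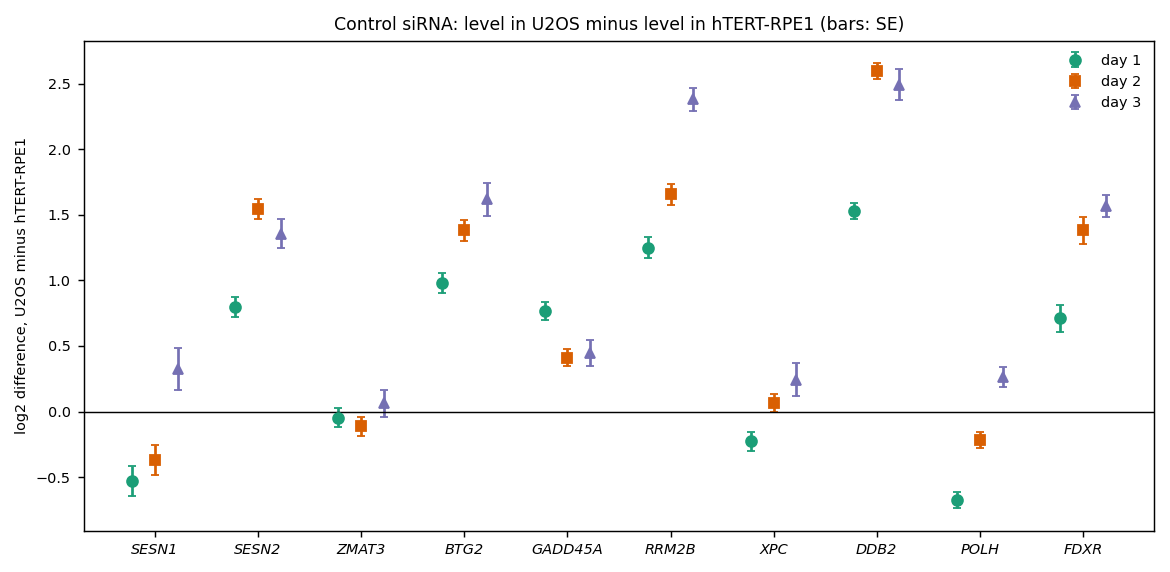
Log2 difference between control siRNA in U2OS and in hTERT-RPE1 for each member on days 1, 2 and 3, with the standard error as bars (3 arrays a group on days 1 and 2, and 2 on day 3). DDB2, RRM2B, BTG2, FDXR, SESN2 and GADD45A lie above 0 on every day. SESN1 and POLH lie below 0 on days 1 and 2 and above 0 on day 3, which is a separate set of arrays.

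Members also differed between day 1 and day 2 under control siRNA. No untransfected cells were measured, so time in culture and time since transfection cannot be told apart. From day 1 to day 2, 7 members rose and 1 fell in U2OS, and 2 rose and 2 fell in hTERT-RPE1. The shares of all genes called in either direction were 13% and 10%. In U2OS the rises were BTG2 0.77, FDXR 0.71, DDB2 0.64, SESN2 0.47, SESN1 0.44, RRM2B 0.35 and POLH 0.32 in log2 units, and GADD45A changed by -0.22. In hTERT-RPE1 BTG2 rose by 0.37 and ZMAT3 by 0.23, whereas DDB2 fell by 0.42 and SESN2 by 0.28. DDB2 thus rose in U2OS and fell in hTERT-RPE1 over the same day. Some of these calls rested on few arrays. The GADD45A change in U2OS was lost without any one of the 6 arrays (-0.24 to -0.20, adjusted p 0.059 to 0.104). SESN1 in U2OS was lost without control replicate 2 or 3 of day 1 or replicate 1 or 2 of day 2 (0.32 to 0.41, adjusted p 0.0515 to 0.0926). In hTERT-RPE1 the SESN2 call was lost without replicate 2 of day 1 or replicate 1 or 3 of day 2 (-0.27 to -0.23, adjusted p 0.0548 to 0.101), and the ZMAT3 call without any array of day 1 or replicate 1 of day 2 (0.11 to 0.24, adjusted p 0.0825 to 0.244). Without replicate 2 of day 1 only 2 members were called in hTERT-RPE1.

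The siRNAs were then compared with control siRNA of the same line and day. In hTERT-RPE1 CASP8AP2 siRNA moved no member past the threshold on day 1, 5 upward on day 2 and 6 upward on day 3. DDB2, BTG2, RRM2B and SESN1 were called on both later days. SESN2 was called on day 2 only, and FDXR and POLH on day 3 only. Of all genes, 0.449%, 4.25% and 3.62% rose on days 1, 2 and 3. On day 1, 4 members had an unadjusted p under 0.05 with limma, namely SESN2, BTG2, RRM2B and DDB2, with differences of 0.14 to 0.28. The share of all genes at that unadjusted p was not counted. The median difference of the 10 members was 0.12, 0.29 and 0.55 on days 1, 2 and 3, and that of all genes was -0.02 on day 2 and -0.03 on day 3. NPAT siRNA raised 3 members on day 3 (DDB2, RRM2B and POLH), against 2.37% of all genes that rose. HINFP siRNA raised RRM2B, against 2.13% of all genes, although all 10 differences were above 0 (0.03 to 0.56). The median difference under HINFP siRNA was 0.26 for the members and -0.02 for all genes.

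In U2OS CASP8AP2 siRNA raised BTG2, SESN1 and SESN2 on day 1 and these and DDB2 on day 2, which are 3 and 4 of the 10 members against 2.86% and 11.8% of all genes. On day 3 no member was called higher, against 7.91% of all genes. At an unadjusted p under 0.05, for which no share of all genes was counted, 2 members had positive differences (SESN2 and GADD45A, limma). These 2 were called higher after cyclic loess (0.37, adjusted p 0.0377 for SESN2 and 0.36, adjusted p 0.0187 for GADD45A) and in a fit of all 40 arrays (adjusted p 0.0258 and 0.031). Over the alternatives the adjusted p ranged over 0.0258 to 0.363 for SESN2 and 0.0187 to 0.348 for GADD45A. SESN1, RRM2B and POLH fell, against 11% of all genes that fell. NPAT siRNA raised SESN2 alone and HINFP siRNA ZMAT3 alone, each 1 of 10, against 3.84% and 4.59% of all genes. The median difference of the members in U2OS was 0.08 and 0.23 on days 1 and 2 and -0.19, -0.05 and -0.09 on day 3 for CASP8AP2, NPAT and HINFP siRNA. The comparisons of day 3 within a line share their control arrays, so these values are not independent of each other.

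**Figure D2:**
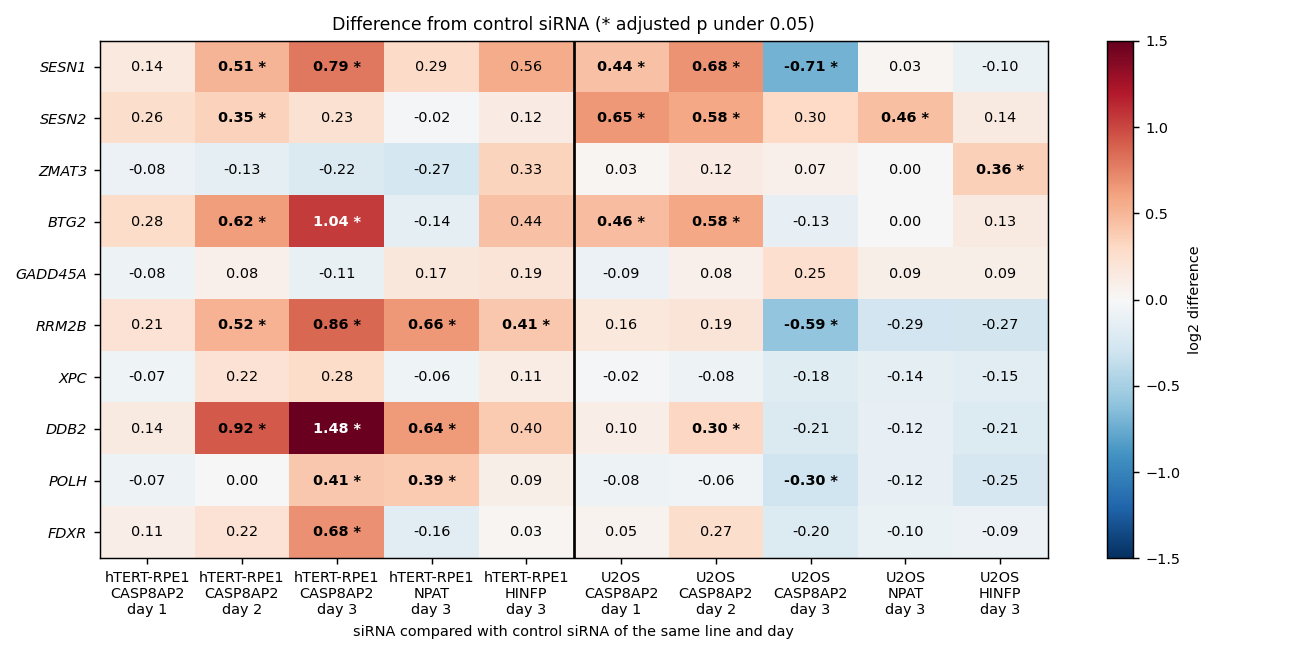
Log2 difference from control siRNA for each member (rows) in the 10 comparisons (columns, hTERT-RPE1 left of the line and U2OS right of it), with an asterisk where the limma adjusted p is under 0.05. hTERT-RPE1 differences under CASP8AP2 siRNA grow from day 1 to day 3 in DDB2 (0.14, 0.92 and 1.48), whereas in U2OS SESN1 and RRM2B are at -0.71 and -0.59 on day 3.

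DDB2, the damage sensor of ultraviolet lesions, had the largest difference of any member. In hTERT-RPE1 its log2 level was 7.75, 7.78 and 7.72 with control and 8.00, 7.77 and 7.89 with CASP8AP2 siRNA on day 1. On day 2 it was 7.39, 7.38 and 7.21 with control and 8.23, 8.20 and 8.31 with CASP8AP2 siRNA. On day 3 it was 7.01 and 7.25 with control and 8.63 and 8.59 with CASP8AP2 siRNA. The groups overlapped on day 1 and were separate on days 2 and 3, when DDB2 was 1.89-fold (log2 difference 0.92, SE 0.06, adjusted p 2.03e-09) and 2.78-fold higher (log2 difference 1.48, SE 0.12, adjusted p 6.81e-06). On day 2 part of the distance came from the controls, which were lower than on day 1. The rise was larger on day 2 than on day 1 by 0.78 (SE 0.09, adjusted p 2.62e-05), and DDB2 was the only member with a called change of effect between these days, against 0.603% of all genes with a called increase.

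The other siRNAs moved DDB2 less in hTERT-RPE1. NPAT siRNA arrays were at 7.79 and 7.74 and HINFP siRNA arrays at 7.70 and 7.36, all above both controls. The NPAT rise was called (log2 difference 0.64, SE 0.12, adjusted p 0.00933), but not without control replicate 1 (0.51, adjusted p 0.0578), without NPAT replicate 1 (0.61, adjusted p 0.0914) or in a fit of only the groups compared (adjusted p 0.0819, range over the alternatives 2.54e-05 to 0.0914). For HINFP the difference was 0.40 (adjusted p 0.0806). In U2OS the levels were 9.97, 9.85 and 9.95 with control and 10.23, 10.21 and 10.23 with CASP8AP2 siRNA on day 2, a small separate rise (log2 difference 0.30, SE 0.06, adjusted p 0.000791). On day 3 U2OS controls were at 9.59 and 9.65 and CASP8AP2 siRNA arrays at 9.31 and 9.50. These U2OS arrays lay below their controls, but the difference was not called (-0.21, adjusted p 0.25). Even after its rise, DDB2 in hTERT-RPE1 on day 3 stayed below every U2OS array.

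XPC, the partner of DDB2 in finding lesions, passed the threshold in no comparison with control siRNA. Its group means spanned 6.58 to 6.89 in the first set of arrays (days 1 and 2) and 6.83 to 7.18 in the day 3 set. Nearest was CASP8AP2 siRNA in hTERT-RPE1, with 0.22, adjusted p 0.0766 for day 2 and 0.28, adjusted p 0.229 for day 3. The day 2 difference was called higher without control replicate 3 or without CASP8AP2 replicate 1. With single arrays left out it ranged over 0.16 to 0.30, with adjusted p up to 0.266. On day 3 the CASP8AP2 arrays were both at 7.18, above the controls at 6.74 and 7.06. On days 1 and 2 all 7 neighbours in the order of the 8 XPC group levels overlapped in range, and on day 3, 6 of 7 did. Groups that are not neighbours can still be separate. In U2OS on day 2 the CASP8AP2 arrays (6.63 to 6.70) lay below all controls (6.72 to 6.76), without a call (-0.08, adjusted p 0.481).

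POLH, the translesion polymerase, was called against control siRNA on day 3 only, and in opposite directions in the 2 lines. In hTERT-RPE1 on day 3 control arrays were at 9.18 and 9.16, CASP8AP2 arrays at 9.61 and 9.54 and NPAT arrays at 9.54 and 9.58. Both groups were above the controls without overlap (log2 difference 0.41, SE 0.08, adjusted p 0.00662 for CASP8AP2 and 0.39, adjusted p 0.012 for NPAT siRNA). Arrays under HINFP siRNA were at 9.22 and 9.30 (0.09, adjusted p 0.572). In U2OS the controls were at 9.45 and 9.42 and the CASP8AP2 arrays at 9.11 and 9.16, a fall without overlap (log2 difference -0.30, SE 0.08, adjusted p 0.0154). On days 1 and 2 POLH differed from control by -0.08 to -0.00 in both lines and was not called.

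These POLH calls were among the least stable. The CASP8AP2 rise in hTERT-RPE1 was lost without CASP8AP2 replicate 1 (0.37, adjusted p 0.0623) and in a fit of only the groups compared (adjusted p 0.126, range over the alternatives 0.000145 to 0.126). The NPAT rise was lost without NPAT replicate 1 (0.41, adjusted p 0.0767) or replicate 2 (0.37, adjusted p 0.08) and in that fit (range 0.000345 to 0.143). Without NPAT replicate 1, 1 member (RRM2B) was called under NPAT siRNA in place of 3. In U2OS the fall was lost without control replicate 1 or 2 or CASP8AP2 replicate 1 (-0.32 to -0.27, adjusted p 0.0604 to 0.104). After cyclic loess it was -0.18, adjusted p 0.12 (range 0.00179 to 0.12).

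RRM2B, the ribonucleotide reductase subunit, rose under every siRNA in hTERT-RPE1 on day 3. Its control arrays were at 7.41 and 7.60, CASP8AP2 arrays at 8.32 and 8.42, NPAT arrays at 8.15 and 8.18 and HINFP arrays at 7.94 and 7.88. None of the 4 groups overlapped, and the order from high to low was CASP8AP2, NPAT, HINFP and control. The rises were 1.81-fold for CASP8AP2 (log2 difference 0.86, SE 0.09, adjusted p 6.3e-05), 1.58-fold for NPAT (log2 difference 0.66, SE 0.09, adjusted p 0.00143) and 1.33-fold for HINFP siRNA (log2 difference 0.41, SE 0.09, adjusted p 0.025). The NPAT call was kept without each array, but lost in a fit of only the groups compared (limma adjusted p 0.0678). The HINFP call was lost without control replicate 1 (0.31, adjusted p 0.107), HINFP replicate 1 (0.38, adjusted p 0.157) or HINFP replicate 2 (0.44, adjusted p 0.0814). It was also lost in that fit (range over the alternatives 0.00466 to 0.201). The count of members called under HINFP siRNA was 0 without control or HINFP replicate 1. It was 2 without control replicate 2 (RRM2B and ZMAT3) and 2 without HINFP replicate 2 (BTG2 and DDB2). On day 2 CASP8AP2 arrays at 8.13, 8.09 and 8.06 stood above controls at 7.46, 7.81 and 7.46 (log2 difference 0.52, SE 0.08, adjusted p 0.000265).

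In U2OS the order of RRM2B was turned around on day 3. Controls were highest at 9.94 and 9.84, HINFP arrays were at 9.63 and 9.60, NPAT arrays at 9.56 and 9.64 and CASP8AP2 arrays lowest at 9.24 and 9.36. Only the HINFP and NPAT groups overlapped. CASP8AP2 siRNA left 0.666 of the control level (log2 difference -0.59, SE 0.09, adjusted p 0.000741), a call kept in all 6 alternative settings and without each array. The differences under NPAT and HINFP siRNA were -0.29, adjusted p 0.0659 and -0.27, adjusted p 0.0777. On day 2, by contrast, the U2OS difference was 0.19 (adjusted p 0.0941).

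**Figure D3:**
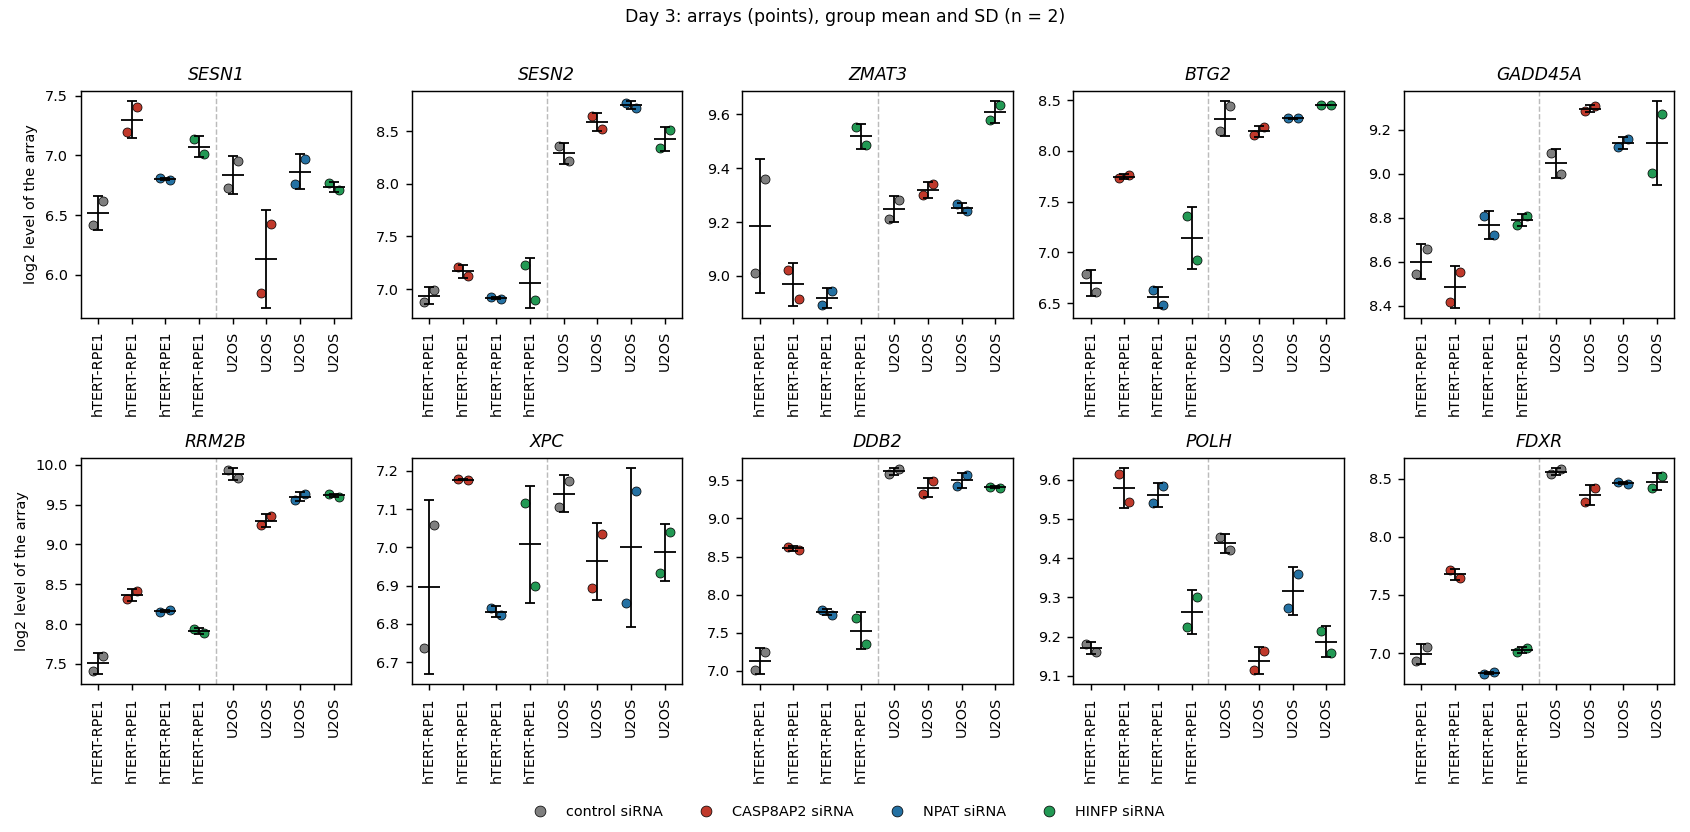
Log2 level of each member on the 16 arrays of day 3 by cell line and siRNA, with points for arrays and bars for the group mean and SD (n = 2). The log2 axis of each panel has its own range. In hTERT-RPE1 DDB2 and RRM2B are lowest with control and highest with CASP8AP2 siRNA, and stay below all U2OS arrays. NPAT and HINFP siRNA were not called as different there (limma adjusted p 0.352 for DDB2 and 0.161 for RRM2B).

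SESN1, a sestrin known to restrain TORC1, was higher than control under CASP8AP2 siRNA in hTERT-RPE1 on days 2 and 3. In U2OS it was higher on days 1 and 2 and lower on day 3. Day 3 is a separate set of arrays, so a change of effect between days 2 and 3 was not tested. hTERT-RPE1 arrays were at 6.65, 6.69 and 6.71 with control and 7.14, 7.21 and 7.24 with CASP8AP2 siRNA on day 2. On day 3 they were at 6.41 and 6.62 with control, 7.19 and 7.41 with CASP8AP2, 6.81 and 6.80 with NPAT and 7.13 and 7.01 with HINFP siRNA. All siRNA arrays lay above the controls. CASP8AP2 siRNA gave called rises after 2 days (log2 difference 0.51, SE 0.11, adjusted p 0.00741) and 3 days (log2 difference 0.79, SE 0.16, adjusted p 0.0109). The day 3 rise was lost without control replicate 1 (0.68, adjusted p 0.075) or CASP8AP2 replicate 2 (0.68, adjusted p 0.111, range over the alternatives 0.000643 to 0.111). HINFP and NPAT siRNA gave 0.56, adjusted p 0.0701 and 0.29, adjusted p 0.354.

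In U2OS SESN1 arrays were at 6.01, 5.81 and 5.81 with control and 6.28, 6.22 and 6.44 with CASP8AP2 siRNA on day 1. On day 2 they were at 6.55, 6.44 and 5.96 with control and 7.03, 6.82 and 7.13 with CASP8AP2 siRNA. On day 3 they were at 6.72 and 6.95 with control and 5.84 and 6.42 with CASP8AP2 siRNA. CASP8AP2 arrays were above every control on days 1 and 2 and below them on day 3. The differences were 0.44, adjusted p 0.0226 on day 1, 0.68, adjusted p 0.000112 on day 2 and -0.71, adjusted p 0.00801 on day 3. The day 1 call was lost without control replicate 2 or 3 or CASP8AP2 replicate 1 or 3 (0.38 to 0.46, adjusted p 0.0526 to 0.105). The size of the fall on day 3 depended on CASP8AP2 replicate 1, the lower of its pair, without which it was -0.42, adjusted p 0.0984. It was -0.59, adjusted p 0.0755 without control replicate 2, and its adjusted p was 0.0743 in a fit of only the groups compared (range over the alternatives 0.000733 to 0.0984). Without control replicate 2 or without CASP8AP2 replicate 1, RRM2B was the 1 member still called lower in U2OS on day 3.

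SESN2, the other sestrin, rose on days 1 and 2 in U2OS and on day 2 in hTERT-RPE1. U2OS arrays on day 1 were at 7.89, 8.08 and 8.01 with control and 8.69, 8.64 and 8.61 with CASP8AP2 siRNA (log2 difference 0.65, SE 0.07, adjusted p 6.15e-06). On day 2 they were at 8.49, 8.38 and 8.50 with control and 8.99, 9.09 and 9.03 with CASP8AP2 siRNA (log2 difference 0.58, SE 0.07, adjusted p 4.41e-06). The groups were separate on both days, and SESN2 was the most raised member in U2OS on day 1. On day 3 controls were at 8.36 and 8.22, CASP8AP2 arrays at 8.65 and 8.53 and NPAT arrays at 8.77 and 8.72. The NPAT rise was called (log2 difference 0.46, SE 0.11, adjusted p 0.025), but it was lost without any one of the 4 arrays (0.38 to 0.53, adjusted p 0.0748 to 0.152). With CASP8AP2 siRNA the difference was 0.30, adjusted p 0.0849. In hTERT-RPE1 SESN2 rose on day 2 (log2 difference 0.35, SE 0.07, adjusted p 0.00511), but fell short in a fit of only the groups compared (adjusted p 0.12, range over the alternatives 0.00205 to 0.12). The test of the line difference for SESN2 gave 0.39, adjusted p 0.107 for day 1, 0.23, adjusted p 0.202 for the next day and 0.06, adjusted p 0.847 for the last. None passed the threshold, so the lines are not shown to differ.

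FDXR, the mitochondrial ferredoxin reductase, was called higher in 1 of the 10 comparisons with control siRNA. hTERT-RPE1 arrays on day 3 were at 6.93 and 7.06 with control, 7.71 and 7.64 with CASP8AP2, 6.82 and 6.84 with NPAT and 7.01 and 7.04 with HINFP siRNA. CASP8AP2 arrays stood apart from all others, and FDXR was 1.61-fold higher than in the controls (log2 difference 0.68, SE 0.08, adjusted p 0.00021). On day 2 the difference was 0.22 in hTERT-RPE1 and 0.27 in U2OS (adjusted p 0.243 and 0.061). The U2OS difference was called after cyclic loess (0.33, adjusted p 0.0178), in a fit of all 40 arrays, with the low-value filter and without U2OS control replicate 1 (0.35, adjusted p 0.0273), with adjusted p of 0.0178 to 0.225 over the alternatives. On day 3 U2OS arrays were at 8.54 and 8.58 with control and 8.30 and 8.42 with CASP8AP2 siRNA (-0.20, adjusted p 0.106). These U2OS groups did not overlap, but the difference was not called other than with centring on array medians (-0.25, adjusted p 0.0457, range over the alternatives 0.0457 to 0.461).

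BTG2, an antiproliferative protein that promotes the shortening of mRNA tails, had the second largest rise in hTERT-RPE1. Arrays on day 2 were at 7.16, 7.28 and 7.08 with control and 7.83, 7.67 and 7.89 with CASP8AP2 siRNA. On day 3 they were at 6.79 and 6.61 with control, 7.73 and 7.76 with CASP8AP2, 6.63 and 6.49 with NPAT and 7.35 and 6.93 with HINFP siRNA. CASP8AP2 arrays were above all controls on both days, by 1.54-fold on day 2 (log2 difference 0.62, SE 0.08, adjusted p 1.95e-05) and 2.06-fold on day 3 (log2 difference 1.04, SE 0.13, adjusted p 0.00026). NPAT arrays overlapped the controls (-0.14, adjusted p 0.612), and HINFP arrays lay above them without a call (0.44, adjusted p 0.075).

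In U2OS BTG2 rose while its controls rose too. Arrays were at 7.74, 7.77 and 7.85 with control and 8.28, 8.12 and 8.33 with CASP8AP2 siRNA on day 1 (log2 difference 0.46, SE 0.08, adjusted p 0.000781). On day 2 they were at 8.75, 8.51 and 8.41 with control and 9.20, 9.11 and 9.11 with CASP8AP2 siRNA (log2 difference 0.58, SE 0.08, adjusted p 8.54e-06). Both groups were separate on both days. On day 3 the arrays overlapped, at 8.20 and 8.44 with control and 8.15 and 8.23 with CASP8AP2 siRNA (-0.13, adjusted p 0.566).

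GADD45A and ZMAT3 were seldom called. GADD45A, a stress protein that binds PCNA and p21, was called in no comparison with control siRNA. Its differences lay between -0.11 and 0.25, the highest under CASP8AP2 siRNA in U2OS on day 3, with arrays at 9.09 and 9.00 with control and 9.29 and 9.31 with CASP8AP2 siRNA (0.25, adjusted p 0.0968). ZMAT3, an RNA-binding zinc finger protein that controls mRNA stability and splicing, was the 1 member called under HINFP siRNA in U2OS. Its arrays there were at 9.21 and 9.28 with control and 9.58 and 9.64 with HINFP siRNA, without overlap (log2 difference 0.36, SE 0.10, adjusted p 0.0458). The call was lost without any one of the 4 arrays (0.32 to 0.39, adjusted p 0.103 to 0.241), and the adjusted p ranged over 0.00574 to 0.241 over the alternatives. In hTERT-RPE1 HINFP arrays of ZMAT3 were at 9.55 and 9.49 and controls at 9.01 and 9.36 (0.33, adjusted p 0.0903). Its differences there under CASP8AP2 and NPAT siRNA were -0.22 and -0.27, not called, but called lower without control replicate 1 (-0.39, adjusted p 0.0368 and -0.44, adjusted p 0.027). On days 1 and 2 its CASP8AP2 differences were -0.13 to 0.12 across the lines.

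**Figure D4:**
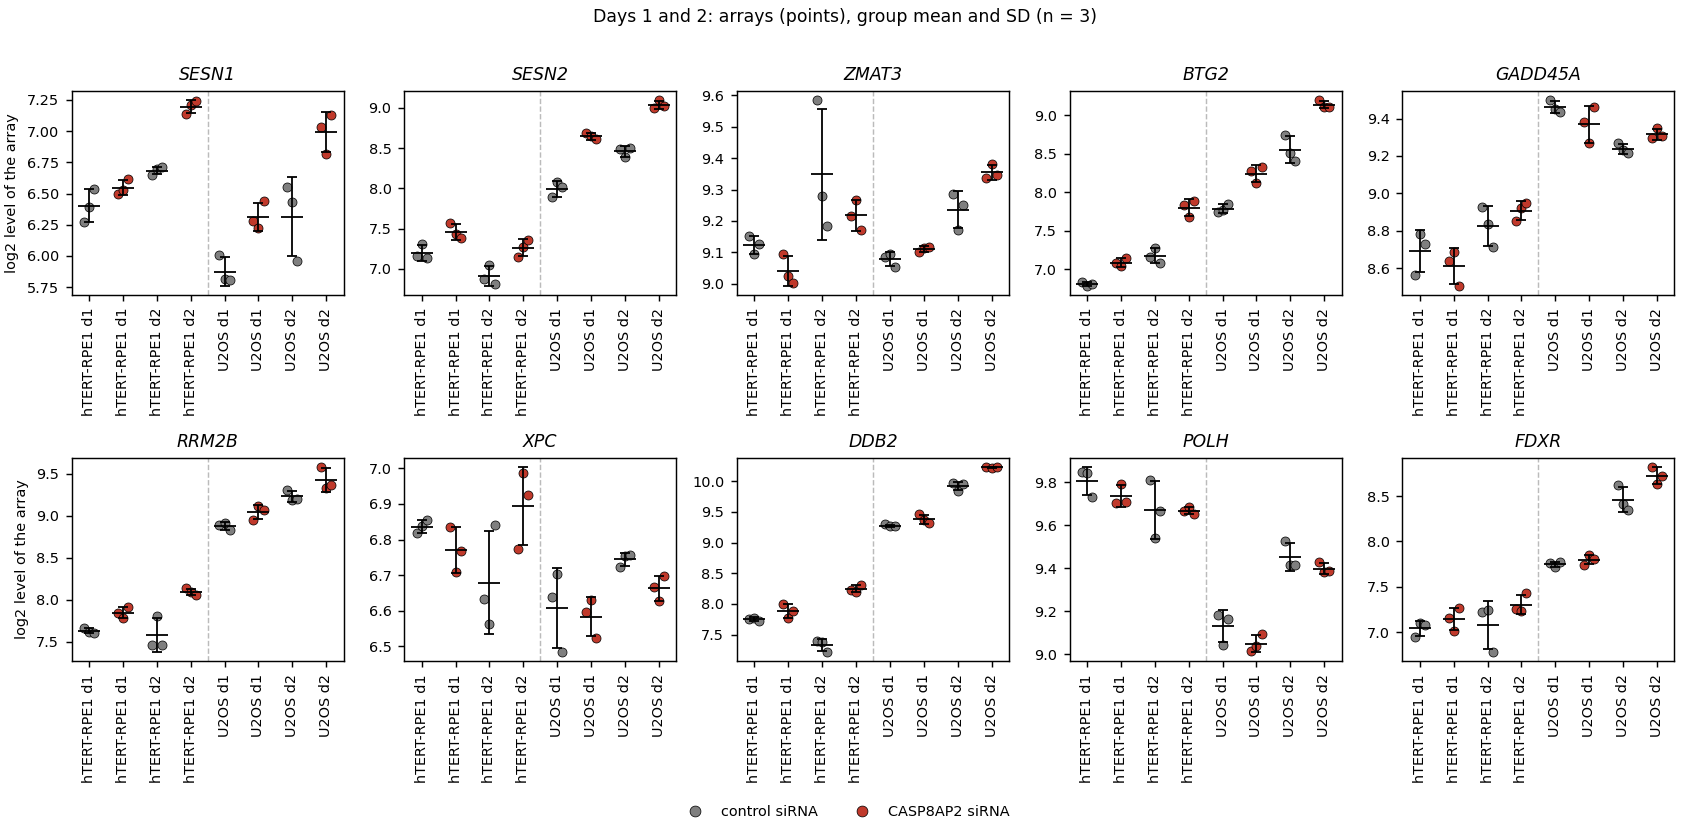
Log2 level of each member on the 24 arrays of days 1 and 2 by cell line, day (d1, d2) and siRNA, with points for arrays and bars for the group mean and SD (n = 3). The log2 axis of each panel has its own range. DDB2 controls fall from day 1 to day 2 in hTERT-RPE1 and rise in U2OS, and 1 array of SESN1 in the U2OS control of day 2 lies at 5.96, below the other 2 at 6.44 and 6.55.

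Whether the effects differed between the lines was tested directly, as the effect in U2OS minus that in hTERT-RPE1. Knockdown was deeper in U2OS, and its part in these differences was not tested. Under CASP8AP2 siRNA on day 3, 6 of 10 members had a lower effect in U2OS, against 5.5% of all genes. These were DDB2 (difference -1.69, SE 0.17, adjusted p 9.03e-05), SESN1 (-1.49, SE 0.23, adjusted p 0.00207) and RRM2B (-1.44, SE 0.13, adjusted p 3.13e-05). BTG2 (-1.17, adjusted p 0.00225), FDXR (-0.89, adjusted p 0.000694) and POLH (-0.71, adjusted p 0.0021) followed. All 6 calls were kept in the 6 alternative settings and without each array. The other 4 members gave XPC -0.46, SESN2 0.06, ZMAT3 0.29 and GADD45A 0.36, with adjusted p of 0.115 to 0.847. For these the test does not show equal effects.

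On earlier days the lines differed less in the members. On day 1 no member differed with limma, against 0.408% of all genes with a lower effect in U2OS, and SESN2 alone had an unadjusted p under 0.05. On day 2 DDB2 had the lower effect in U2OS (log2 difference -0.61, SE 0.09, adjusted p 7.75e-05), against 4.83% of all genes, whereas BTG2 (-0.04) and SESN1 (0.17) did not pass. The day 2 count was 2 without replicate 2 of hTERT-RPE1 control, replicate 1 of hTERT-RPE1 CASP8AP2 siRNA or replicate 1 of U2OS CASP8AP2 siRNA, and 3 without replicate 3 of hTERT-RPE1 control. For the change of the CASP8AP2 effect in U2OS from day 1 to day 2, 0 members passed the threshold with limma, against 4% of all genes with a called increase. At an unadjusted p under 0.05 there was 1 of 10 members (DDB2, 0.20).

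For the other siRNAs fewer members differed between the lines. Under NPAT siRNA RRM2B (log2 difference -0.94, SE 0.13, adjusted p 0.00178), DDB2 (log2 difference -0.76, SE 0.17, adjusted p 0.0302) and POLH (log2 difference -0.51, SE 0.11, adjusted p 0.0241) had a lower effect in U2OS, against 1.59% of all genes. Only RRM2B was kept without each array. The DDB2 call was lost without any one of the 8 arrays other than replicate 2 of hTERT-RPE1 control (-0.83 to -0.64, adjusted p 0.0586 to 0.115), and the POLH call without any other than replicate 1 of it (-0.55 to -0.47, adjusted p 0.0514 to 0.095). Under HINFP siRNA RRM2B differed (log2 difference -0.68, SE 0.13, adjusted p 0.0119), against 1.44% of all genes. This call was lost without replicate 1 of the U2OS control (-0.62, adjusted p 0.0617) and in a fit of only the groups compared (adjusted p 0.0619, range over the alternatives 0.00131 to 0.0619). The count was 2 without replicate 2 of hTERT-RPE1 HINFP siRNA, with DDB2 added. RRM2B was thus the member whose effect differed between the lines under all 3 siRNAs on day 3.

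**Figure D5:**
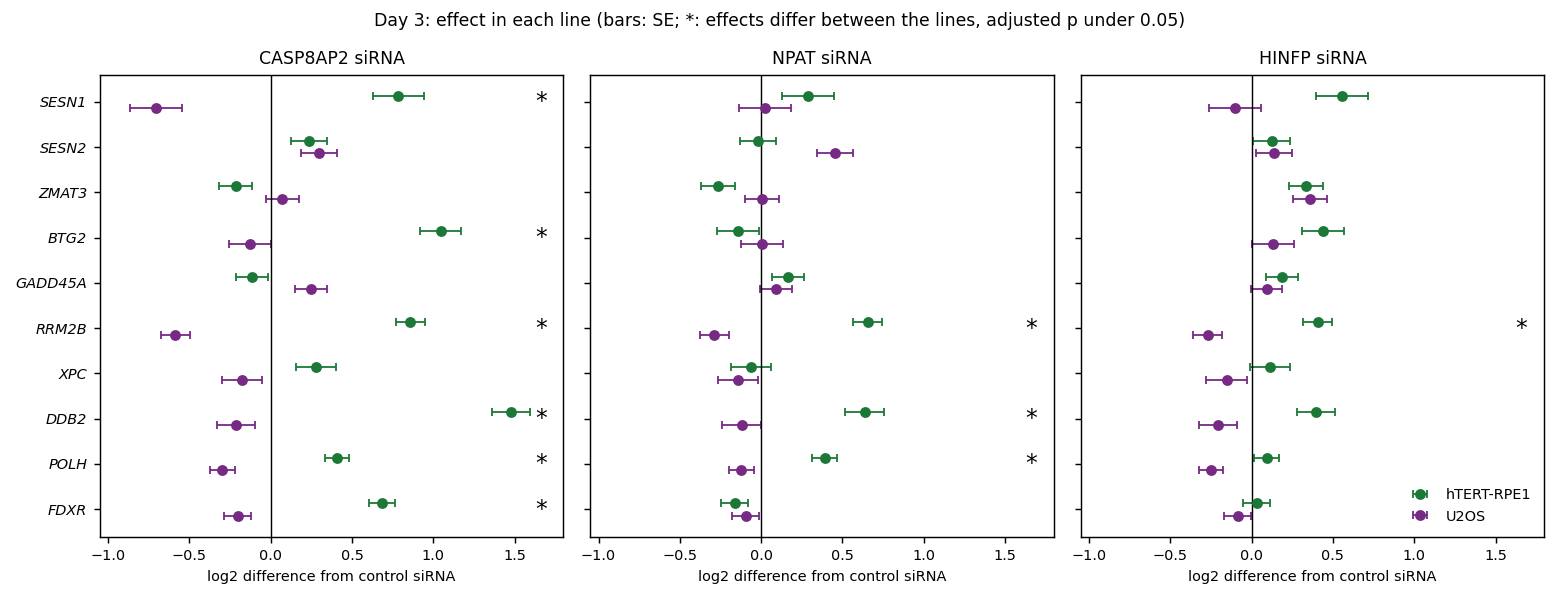
Log2 difference from control siRNA on day 3 in hTERT-RPE1 (green) and U2OS (purple) for each member under CASP8AP2, NPAT and HINFP siRNA, with the standard error as bars. Asterisks mark the 6, 3 and 1 members whose effects differed between the lines.

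The siRNAs were also set against each other within a line on day 3, in 6 comparisons in which the control arrays cancel. In hTERT-RPE1 BTG2 (log2 difference 1.18, SE 0.13, adjusted p 0.000305), FDXR (log2 difference 0.85, SE 0.08, adjusted p 0.000113) and DDB2 (log2 difference 0.84, SE 0.12, adjusted p 0.00182) were higher with CASP8AP2 than with NPAT siRNA. These are 3 of 10 members, against 2.38% of all genes in either direction. RRM2B (0.20, SE 0.09) and POLH (0.02, SE 0.08), which rose under both, were not called as different (adjusted p 0.34 and 0.965).

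CASP8AP2 and HINFP siRNA differed in 6 members in hTERT-RPE1, against 3.81% of all genes. With CASP8AP2 siRNA DDB2 was higher by 1.08, adjusted p 0.000177, FDXR by 0.65, adjusted p 0.000552, BTG2 by 0.61, adjusted p 0.0184, RRM2B by 0.45, adjusted p 0.0124 and POLH by 0.32, adjusted p 0.0361, and ZMAT3 was lower (-0.55, adjusted p 0.00937). DDB2 and FDXR were kept without each array. BTG2 was lost without CASP8AP2 replicate 1 or 2 or HINFP replicate 2 (0.39 to 0.62, adjusted p 0.093 to 0.169). RRM2B (0.40 to 0.48, adjusted p 0.0574 to 0.115) and ZMAT3 (-0.58 to -0.49, adjusted p 0.0515 to 0.0951) were lost without CASP8AP2 replicate 2 or HINFP replicate 1 or 2, and POLH without any of the 4 arrays (0.28 to 0.35, adjusted p 0.103 to 0.221). The count was 2 without CASP8AP2 replicate 2, 3 without HINFP replicate 1 and 2 without HINFP replicate 2.

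NPAT and HINFP siRNA differed in 3 members in hTERT-RPE1, against 3.63% of all genes. ZMAT3 (-0.60, adjusted p 0.00791) and BTG2 (-0.58, adjusted p 0.0254) were lower and POLH (0.30, adjusted p 0.0488) higher with NPAT siRNA. No call of the 3 was kept without each array. ZMAT3 was lost without NPAT replicate 1 (-0.57, adjusted p 0.0824) or HINFP replicate 1 (-0.57, adjusted p 0.095), BTG2 without NPAT replicate 1 or 2 or HINFP replicate 1 (-0.65 to -0.36, adjusted p 0.101 to 0.264) and POLH without any of the 4 (0.26 to 0.34, adjusted p 0.097 to 0.31). The count was 0 without replicate 1 of either group and 1 without NPAT replicate 2.

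In U2OS the siRNAs differed in SESN1 alone. It was lower with CASP8AP2 than with NPAT siRNA (log2 difference -0.73, SE 0.16, adjusted p 0.0252) and than with HINFP siRNA (log2 difference -0.61, SE 0.16, adjusted p 0.0439), each 1 of 10 members against 3.5% and 5.6% of all genes. NPAT arrays were at 6.76 and 6.97 and HINFP arrays at 6.77 and 6.71. Neither call was kept without CASP8AP2 replicate 1 (-0.44, adjusted p 0.232 and -0.32, adjusted p 0.375) or without either array of the other siRNA (-0.84, adjusted p 0.0655 and -0.63, adjusted p 0.191 for NPAT, -0.58, adjusted p 0.163 and -0.64, adjusted p 0.141 for HINFP). NPAT and HINFP siRNA differed in 0 members by limma in U2OS, against 4.04% of all genes, with SESN2 (0.32) and ZMAT3 (-0.35) at an unadjusted p under 0.05.

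The order of the group levels differed from member to member. For DDB2 on day 3 it ran, from high to low, over U2OS control (mean 9.62), NPAT (9.50), HINFP (9.41) and CASP8AP2 siRNA (9.41), then hTERT-RPE1 CASP8AP2 (8.61), NPAT (7.77), HINFP (7.53) and control siRNA (7.13). HINFP and CASP8AP2 siRNA in U2OS were the only neighbours that overlapped. RRM2B followed the same order in hTERT-RPE1. For SESN1 on day 3 the order mixed the lines, from hTERT-RPE1 CASP8AP2 siRNA at 7.30 to U2OS CASP8AP2 siRNA at 6.13, with 3 of 7 neighbours overlapping. On days 1 and 2 DDB2 ran from U2OS CASP8AP2 siRNA on day 2 (10.23) down to hTERT-RPE1 control on day 2 (7.33), with 1 of 7 neighbours overlapping. POLH was the 1 member with every hTERT-RPE1 array above every U2OS array on days 1 and 2. SESN2, GADD45A, RRM2B, DDB2 and FDXR were above in U2OS on all arrays of both sets, and BTG2 on those of day 3. The share of all genes whose arrays were separate between the lines was not counted. By group mean the members ranked between the 52.9th percentile of all genes (SESN1) and the 94.7th (DDB2), so none was near the bottom of the range.

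The shape of the response was compared between members over the 10 comparisons with control siRNA. This is a description, because the comparisons of day 3 within a line share control arrays. Pearson's r over the 10 differences was 0.951 between BTG2 and FDXR, 0.905 between DDB2 and XPC, 0.904 between RRM2B and DDB2 and 0.902 between RRM2B and POLH. The median of the 45 pairs was 0.282. The lowest values were those of pairs with GADD45A or ZMAT3, down to -0.664 between GADD45A and FDXR. SESN2 also had r below 0 with POLH (-0.417), GADD45A (-0.377), RRM2B (-0.258), DDB2 (-0.214) and XPC (-0.105). With SESN1, ZMAT3, BTG2 and FDXR its r was between 0.0561 and 0.282. Among 511 genes with a symbol and a difference of at least 0.5 in some comparison, the 5 most like the median of the members were PAQR5 (r 0.949), GFRA2 (0.922), MMD (0.884), C3 (0.862) and CRLF3 (0.855). C3, the central complement component, differed by 2.47 under CASP8AP2 siRNA in hTERT-RPE1 on day 3. In U2OS it differed by 0.83 on day 2 and -0.05 on day 3 under CASP8AP2 siRNA and by -0.97 under NPAT siRNA.

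Other genes of the same pathways were counted from lists, of which only the genes with a symbol here could be read. Of 47 other p53 targets 14 had a symbol. In hTERT-RPE1 under CASP8AP2 siRNA 1, 4 and 3 of them rose on days 1, 2 and 3, where 0.449%, 4.25% and 3.62% of all genes rose. PMAIP1, the death gene NOXA, rose by 0.44, 0.94 and 1.08, and CD82, a membrane tetraspanin, by 0.89 and 1.67 on days 2 and 3. In U2OS 2, 8 and 4 rose and 2, 4 and 2 fell on days 1, 2 and 3. Of all genes 2.86%, 11.8% and 7.91% rose and 3.01%, 13.1% and 11% fell there. PMAIP1 in U2OS differed by 0.23 on day 3 (not called). The median of the 14 under CASP8AP2 siRNA on days 1, 2 and 3 was 0.02, 0.11 and -0.06 in hTERT-RPE1. In U2OS it was 0.08, 0.19 and -0.13. In hTERT-RPE1 on day 3 the median of the members was 0.55 and that of all genes -0.03.

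Partners of the repair members were also examined. Of 16 nucleotide excision repair partners 8 had a symbol, and DDB1, which forms the complex with DDB2, differed from control by -0.13 to 0.09 and was not called. Of 7 translesion synthesis partners 4 had a symbol, and RAD18, which recruits POLH, rose by 0.41 under NPAT siRNA in hTERT-RPE1 and differed by -0.24 under CASP8AP2 siRNA in U2OS on day 2 (called lower). Both ribonucleotide reductase partners of RRM2B had a symbol. RRM1 and RRM2 were called higher under NPAT siRNA in hTERT-RPE1 (0.42 and 0.49). Under CASP8AP2 siRNA on day 3 they differed by 0.12 and 0.32 (not called), when RRM2B rose by 0.86. Neither was called as different between these siRNAs in hTERT-RPE1. In U2OS 1 of them was called lower under CASP8AP2 siRNA on day 2.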

How the data were processed

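Affymetrix arrays (40 in all, 24 of days 1 and 2 and 16 of day 3) were measured in 2 cell lines. The values used are the log2 expression values the authors deposited, made with RMA per the submitters' processing notes and with a custom grouping of probes into 1 probe set per Ensembl gene. The version of that grouping and the genome build are not given in the sources used here. Arrays give no counts, so the number of arrays limits the precision, and where nothing says that replicates are separate cultures, p-values measure only the spread between arrays. Samples were grouped by labelled line, siRNA and day.

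Each set was fitted on its own with limma (version 3.58.1, R 4.3.3), with 8 group means and no other covariate, leaving 16 and 8 residual degrees of freedom. In all, 28 comparisons were tested, two-sided, with Benjamini-Hochberg adjustment over 22069 genes, and called at an adjusted p under 0.05. Shares of all genes were counted at that threshold only, and not at an unadjusted p. The script was tested on simulated data. Alternatives were a fit of only the groups compared, a fit of all 40 arrays, centring on array medians, cyclic loess, a filter on low values, a replicate block (except between the lines' controls, with which it is aliased) and leaving out each array. All 10 members are reported, so no rule chose among them; the genes most like them are the 5 with the highest Pearson's r to the members' median. Symbols of other genes came from pairs in the study's supplementary table (1906 genes, 8.64%). Counts of the nucleotide excision repair partners are not reported here. The members and lists were chosen with earlier results of these data known.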

Additional observations from a re-analysis of the deposited data

Results flagged for a closer look

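The results below stood out because a test of the difference itself, between lines or between days, passed the threshold with limma. Groups of 2 or 3 arrays are too small for a test of single outlying arrays. On day 2 the effect of CASP8AP2 siRNA on DDB2 was lower in U2OS than in hTERT-RPE1 by a log2 difference of -0.61. On day 3 the same difference was -1.49 for SESN1, -1.17 for BTG2, -1.44 for RRM2B, -1.69 for DDB2, -0.71 for POLH and -0.89 for FDXR. Under NPAT siRNA it was -0.94 for RRM2B, -0.76 for DDB2 and -0.51 for POLH, and under HINFP siRNA -0.68 for RRM2B. In hTERT-RPE1 the effect of CASP8AP2 siRNA on DDB2 was larger on day 2 than on day 1 by 0.78. The NPAT differences of DDB2 and POLH were lost without most single arrays, and the HINFP difference of RRM2B without replicate 1 of the U2OS control.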

How the results depend on the processing

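Of the 280 pairs of member and comparison 89 were called, 63 in every alternative setting fitted and 57 also without each array. Of the 191 not called, 30 were called in at least 1 of the 6 settings, and none of the called values changed sign. The counts of members called moved as follows, and the cause was not tested where fewer or more arrays in the fit do not give it. In a fit of only the groups compared, which has fewer arrays, NPAT siRNA in hTERT-RPE1 called 0 (from 3), HINFP siRNA 0 (from 1) in either line, and CASP8AP2 siRNA in U2OS on day 3, 1 (from 3). The line difference under HINFP siRNA called 0 (from 1). Within hTERT-RPE1 that fit called 2 (from 6) for CASP8AP2 against HINFP, 1 (from 3) for NPAT against HINFP and 2 (from 4) for the control days, and in U2OS 0 (from 1) for CASP8AP2 against either siRNA. A fit of all 40 arrays called 5 under HINFP siRNA in hTERT-RPE1 (from 1). In U2OS it called 5 under CASP8AP2 on day 3 (2 higher and 3 lower, from 3 lower), 2 under NPAT and 3 under HINFP siRNA (from 1 each), and 3 for the line difference under HINFP siRNA. Between siRNAs it called 5 for CASP8AP2 against NPAT in hTERT-RPE1 (from 3), and in U2OS 2 for CASP8AP2 against NPAT, 3 against HINFP and 2 for NPAT against HINFP (from 0). Cyclic loess called 7 (from 4) under CASP8AP2 siRNA in U2OS and 2 (from 1) for the line difference, both on day 2. Median centring called 2 (from 1) under NPAT siRNA in U2OS and for CASP8AP2 against HINFP there. The filter on low values called 2 (from 1) under HINFP siRNA in U2OS and for CASP8AP2 against HINFP there.

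Deviations of same-numbered arrays correlated by -0.102 to 0.205. On day 3, with 2 arrays a group, both replicates of a comparison give the same r. Whether replicate numbers pair the samples was not tested. The block could not be fitted to the 30 differences between the controls of the lines, because each line has its own blocks. With a replicate block 4 calls were lost and 1 gained of the other 250, and the count under HINFP siRNA was 2 in hTERT-RPE1 and 0 in U2OS (from 1 each). Without single arrays the counts ranged over 1 to 3 under NPAT and 0 to 2 under HINFP siRNA in hTERT-RPE1, and over 1 to 3 under CASP8AP2 on day 3 and 0 to 0 under NPAT or HINFP siRNA in U2OS. The line differences ranged over 1 to 3 (day 2), 1 to 2 (NPAT) and 0 to 2 (HINFP). Between siRNAs the ranges were 2 to 4 (CASP8AP2 against HINFP) and 0 to 2 (NPAT against HINFP) in hTERT-RPE1 and 0 to 1 for CASP8AP2 against either in U2OS, and the hTERT-RPE1 control days gave 2 to 4. Differences on day 3 rest on 2 arrays a group, which limits their precision.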
